A study of Homo sapiens with 72 samples.

Results

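DU145 is a prostate cancer cell line grown from a metastatic site. A pair of independent TUT4/7 double-mutant clones of it was sequenced for small RNA, and the comparison described here is that of one mutant clone with the other. The 8 libraries at its centre (of 72 samples in the whole series) are 4 of clone #1 (TUT4/7 cKO #1) and 4 of clone #2 (TUT4/7 cKO #2). They were chosen by their labelled genotype alone, with no measured value. Both clones carry the genotype LIN28A-; TUT4-; TUT7-, with TUT4 targeted in exon 12 and TUT7 in exon 14 by CRISPR. The 4 wild-type libraries (LIN28A-; TUT4+; TUT7+, not targeted) give the background level of each measure. Neither clone was compared with a sister clone of the same edit, so a difference between the clones cannot be told apart from a difference between any pair of single-cell-derived DU145 lines. The replicates of a group are successive passages, 9 to 12 in cKO #1 and 8 to 11 in cKO #2. The spread behind the p-values is therefore that between passages. Tests by edgeR also pool spread over miRNAs or genes, so a very small p-value there does not rest on 1 miRNA's own libraries alone. The labels name cKO #1 by the same clone number in every replicate, but the last part of the clone number of cKO #2 differs in each of its 4 replicates, while the titles give them as 1 mutant. Whether the 4 are passages of one clone was not settled here. The passage numbers of the wild-type libraries are far higher, and passage number and genotype cannot be told apart in a comparison with wild type. The same clones carrying a LIN28A cDNA (LIN28A+; TUT4-; TUT7-, driven by a lentiviral CMV promoter and selected with puromycin, passages 1 to 4) gave 8 more libraries, and the untargeted LIN28A+ line gave 4.

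TUT4 and TUT7 are terminal uridylyltransferases, enzymes that add uridine to the 3′ end of small RNAs. They add single uridines to mature miRNAs and to pre-miRNAs, and with LIN28A, a protein that binds the loop of let-7 precursors, they add the longer U tails that mark pre-let-7 for decay. Other nucleotidyltransferases add adenosine, the best studied being TENT2. A mature miRNA keeps its seed, the bases 2 to 8 from its 5′ end that pair with target mRNAs, whatever tail it carries. The measures compared here are the share of a miRNA's reads with a nontemplated U tail that remains in the clones (the residual U), the share with a nontemplated A tail, and the abundance of the miRNA. A tail counts as U or A where every nontemplated 3′ base is U or A, of any length.

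The miRNAs that carry most of the findings are printed here, from 5′ to 3′, with the seed in capitals. Their sequences and positions are those of RefSeq on GRCh38.p14. The first set lost most of a large wild-type U share in both clones and kept more of it in cKO #2. These are miR-652-3p from chrX:110055389-110055409 (plus strand), miR-760 from chr1:93846880-93846899 (plus strand), miR-326 from chr11:75335108-75335127 (minus strand), miR-3200-3p from chr22:30731610-30731631 (plus strand), miR-330-3p from chr19:45639009-45639031 (minus strand) and miR-484 from chr16:15643301-15643322 (plus strand).
miR-652-3p: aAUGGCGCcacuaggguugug
miR-760: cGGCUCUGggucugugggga
miR-326: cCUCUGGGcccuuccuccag
miR-3200-3p: cACCUUGCgcuacucaggucug
miR-330-3p: gCAAAGCAcacggccugcagaga
miR-484: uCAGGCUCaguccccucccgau

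The second set gained A tails in both clones. The A share was higher in cKO #1 than in cKO #2 for let-7b-3p, miR-324-3p, miR-671-5p and miR-27a-3p, while the differences of let-7f-1-3p and let-7i-3p missed the threshold. let-7b-3p from chr22:46113745-46113766 (plus strand) and let-7f-1-3p from chr9:94176409-94176430 (plus strand) share the seed UAUACAA, and let-7i-3p from chr12:62603747-62603768 (plus strand) has another. With them are miR-324-3p from chr17:7223308-7223330 (minus strand), miR-671-5p from chr7:151238449-151238471 (plus strand) and miR-27a-3p from chr19:13836447-13836467 (minus strand).
let-7b-3p: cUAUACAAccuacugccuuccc
let-7f-1-3p: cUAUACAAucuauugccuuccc
let-7i-3p: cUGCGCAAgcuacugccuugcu
miR-324-3p: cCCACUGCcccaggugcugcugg
miR-671-5p: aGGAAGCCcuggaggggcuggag
miR-27a-3p: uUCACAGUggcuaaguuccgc

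The third set is drawn from the miRNAs that differed in abundance. miR-27b-3p from chr9:95085505-95085525 (plus strand) has the seed of miR-27a-3p and differs from it near the 3′ end, and miR-23b-3p from chr9:95085265-95085287 (plus strand) is its neighbour. miR-135a-5p from chr3:52294270-52294292 (minus strand) and miR-135b-5p from chr1:205448361-205448383 (minus strand) share the seed AUGGCUU and most other bases, so that reads can count towards both. miR-10a-5p from chr17:48579904-48579926 (minus strand) and miR-200c-3p from chr12:6963742-6963764 (plus strand) complete it.
miR-27b-3p: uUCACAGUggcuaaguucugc
miR-23b-3p: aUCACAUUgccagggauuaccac
miR-135a-5p: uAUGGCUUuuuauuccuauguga
miR-135b-5p: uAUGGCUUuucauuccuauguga
miR-10a-5p: uACCCUGUagauccgaauuugug
miR-200c-3p: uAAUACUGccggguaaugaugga

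The 12 parental libraries held 6214144 to 10779049 miRNA reads each and 2055 miRNAs with a read in at least 1 of them. A single miRNA, miR-21-5p, took 51.6 to 58.5% of the reads. The matching 12 mRNA libraries held 7195437 to 12565155 reads assigned to genes. Of the markers of the labelled cell type, the epithelial genes EPCAM, KRT8, KRT18 and CDH1 were all expressed, while KLK3, a marker of luminal prostate, and PTPRC, a leukocyte marker, had means of at most 0.0512 CPM (read counts scaled to a common library total). EPCAM, an epithelial adhesion molecule, was at 13.5, 12.5, 11.5 and 8.48 CPM in cKO #1, 66.9, 60.8, 61.4 and 45.9 in cKO #2 and 48.2 to 63.9 in wild type, and KRT18, a simple-epithelium keratin, was also higher in cKO #2 (log2 fold change 0.70 ± 0.17, adjusted p = 0.00365). These 2 of the 4 epithelial markers passed the threshold of 0.01, KRT18 not without cKO #1 replicate 1, 2 or 3 or cKO #2 replicate 3 or 4 (adjusted p 0.0108 to 0.0193 by edgeR). Over all 13839 genes tested, 16.7% were higher in cKO #2. Of 4 markers of other cell types, COL1A1 (fibroblast), PECAM1 (endothelial) and PAX8 (renal and ovarian epithelium) passed the filter on low counts, at means in the clones of 5.82 to 7.69, 1.3003 to 1.88 and 2.11 to 2.15 CPM, and none was called between the clones (adjusted p = 0.0265, 0.573 and 0.885 by edgeR). The 4 summed to 8.69 to 12.6 CPM in cKO #1, 8.41 to 13.01 in cKO #2 and 5.18 to 6.54 in wild type. In bulk RNA, fewer cells with a transcript or miRNA and less of it per cell cannot be told apart. Whether these markers have a part in the miRNA differences was not tested.

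The transcripts of the targeted genes come first. TUT4 (ZCCHC11) was at 15.5, 12.7, 14.8 and 5.003 CPM in the 4 cKO #1 mRNA libraries, at 45.1, 49.8, 44.8 and 27.3 in those of cKO #2 and at 44.9, 65.9, 66.0 and 49.8 in wild type. The clones do not overlap, and the transcript was higher in cKO #2 by edgeR's quasi-likelihood test (log2 fold change 1.66 ± 0.25, adjusted p = 7.12e-05). TUT7 (ZCCHC6) was at 21.3, 11.7, 16.2 and 7.505 CPM in cKO #1, 25.9, 28.01, 26.8 and 14.9 in cKO #2 and 31.3, 54.2, 44.97 and 42.2 in wild type. Here the clones overlap and the difference missed the threshold of 0.01 (log2 fold change 0.63 ± 0.25, adjusted p = 0.0519). These counts are summed over the gene, so they do not show whether the targeted exons were altered in the transcripts that were left. LIN28A, which the labels give as negative, and its paralog LIN28B, which they do not name, were at or near 0 in every parental library, at most 0.460 CPM. Across the transcriptome, 4643 of 13839 tested genes (33.6%) differed between the clones, so a single gene that passes the test is common.

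The other genes that write, read or remove tails changed in part. The background was 16.7% of the 13839 genes tested higher in cKO #2 and 16.8% lower. Whether the listed genes differ from that background was not tested. Of 5 other tail writers, 1 rose in cKO #2, MTPAP, the mitochondrial poly(A) polymerase (log2 fold change 0.42, adjusted p = 0.00309 by edgeR). Its call is lost without cKO #1 replicate 3 or cKO #2 replicate 2 or 3 (0.0107 to 0.0121). TENT2, which adenylates miRNAs, was at 76.5, 59.5, 67.3 and 42.2 CPM in cKO #1 and 58.0, 60.2, 53.2 and 39.9 in cKO #2 (adjusted p = 0.0888 by edgeR). Of 5 genes for enzymes that trim 3′ ends, TOE1, a deadenylase, was higher in cKO #2 (log2 1.00), while DIS3L2, which degrades uridylated RNA (log2 −0.51), and ERI1, a 3′ exonuclease, were lower. DIS3L2 misses the threshold without cKO #1 replicate 2 or 4 or cKO #2 replicate 1 or 3 (adjusted p 0.0110 to 0.0217). ERI1 moved furthest, with 133, 101, 119 and 84.1 CPM in cKO #1, 37.4, 40.6, 40.6 and 31.7 in cKO #2 and 137 to 151 in wild type (log2 fold change −1.65 ± 0.12, adjusted p = 9.46e-08 by edgeR). Of 10 genes of miRNA production and loading, 5 were higher in cKO #2 and none was lower. These were the Dicer partners TARBP2 (log2 1.05) and PRKRA (0.53) and the Argonautes AGO1 (0.90), AGO3 (1.05) and AGO4 (1.01), with the call of PRKRA lost without cKO #1 replicate 1 (0.0104) or cKO #2 replicate 3 (0.0113). AGO2, the slicing Argonaute, was at 32.7, 33.1, 31.5 and 31.7 CPM in cKO #1 and 33.4, 27.9, 30.004 and 33.1 in cKO #2.

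Both clones lost most U tails, and cKO #2 kept more of them than cKO #1. Of all miRNA reads, 0.0902, 0.0886, 0.0895 and 0.0888% carried a U tail in the 4 cKO #1 libraries and 0.187, 0.225, 0.205 and 0.184% in the 4 cKO #2 libraries, against 1.94, 1.97, 1.77 and 1.80% in wild type. The means were 0.0893 ± 0.000730% (SD, n = 4), 0.200 ± 0.0189% and 1.87 ± 0.101%, so that cKO #1 kept 4.78% of the wild-type share and cKO #2 10.7%, a 2.25-fold difference. The clones do not overlap. The exact permutation test of 4 against 4 gave p = 0.0286 (2-sided), the smallest it can give, and 0.0714 after adjustment over 5 tail classes, which misses 0.05. With 5 classes, an adjusted p under 0.05 needs at least 3 classes at that smallest p.

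miRNAs of the 3p arm, whose 3′ end is also the end of the precursor, had the higher U share. It was 0.226, 0.228, 0.251 and 0.254% in cKO #1, 0.592, 0.656, 0.634 and 0.569% in cKO #2 and 7.06, 7.52, 7.26 and 7.05% in wild type, a 2.55-fold difference between clones. On the 5p arm, whose 3′ end forms only after Dicer has cut, the share was 0.0432 ± 0.00533% in cKO #1, 0.0814 ± 0.00944% in cKO #2 and 0.497 ± 0.0284% in wild type, a 1.88-fold difference. The tails that were left were short. Single-U tails made up 97.0 ± 0.113% of U tails in cKO #1, 95.1 ± 0.512% in cKO #2 and 86.7 ± 0.427% in wild type, and tails of 2 U 2.42 ± 0.103, 4.02 ± 0.346 and 9.68 ± 0.145%. The clones do not overlap in any of these 4 measures, each with an exact permutation p of 0.0286.

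Summed over reads, the A share was apart between the clones on the 3p arm and not on the 5p arm, to which miR-21-5p belongs. On the 3p arm it was 11.8, 11.5, 11.9 and 11.2% in cKO #1, 9.65, 9.63, 9.80 and 9.86% in cKO #2 and 7.54, 7.04, 7.26 and 7.16% in wild type, so that the clones do not overlap (exact permutation p = 0.0286) and both lie above wild type. On the 5p arm the clones overlap, with means of 8.84 ± 0.524 and 9.09 ± 0.532% (exact permutation p = 0.486). Over all miRNAs the A share was 9.51, 8.86, 9.92 and 9.45% in cKO #1 and 9.35, 8.61, 9.30 and 9.61% in cKO #2, which also overlap (exact permutation p = 0.457, 2-sided), above wild type at 8.18, 7.24, 7.65 and 7.82%. The whole-library A share depends on miR-21-5p. Without it, cKO #2 was lower by 1.25 percentage points (difference −1.25, adjusted p = 0.0476, exact permutation test), and in the mean over miRNAs with equal weight by 1.89 (difference −1.89, adjusted p = 0.0476, exact permutation test). A tails longer than 1 base were the more frequent in cKO #1, where single-A tails made up 87.1 ± 0.604% of A tails against 89.0 ± 0.507% in cKO #2 and 90.7 ± 0.399% in wild type. The C share, the G share and the share of tails of mixed bases stayed below 0.6% in every parental mutant library, and none of them passed the threshold. The G share gave the same p as the U share (exact permutation p = 0.0286, adjusted 0.0714), and the clones do not overlap in it. Its means were 0.246 ± 0.00660% in cKO #1, 0.230 ± 0.00970% in cKO #2 and 0.235 ± 0.00713% in wild type. With LIN28A the clones again did not overlap in the G share, at means of 0.260 and 0.219%. The C and mixed shares of the parental clones overlap. Reads with any tail made up 10.7 ± 0.459% in cKO #1 and 10.6 ± 0.426% in cKO #2.

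**Figure D1:**
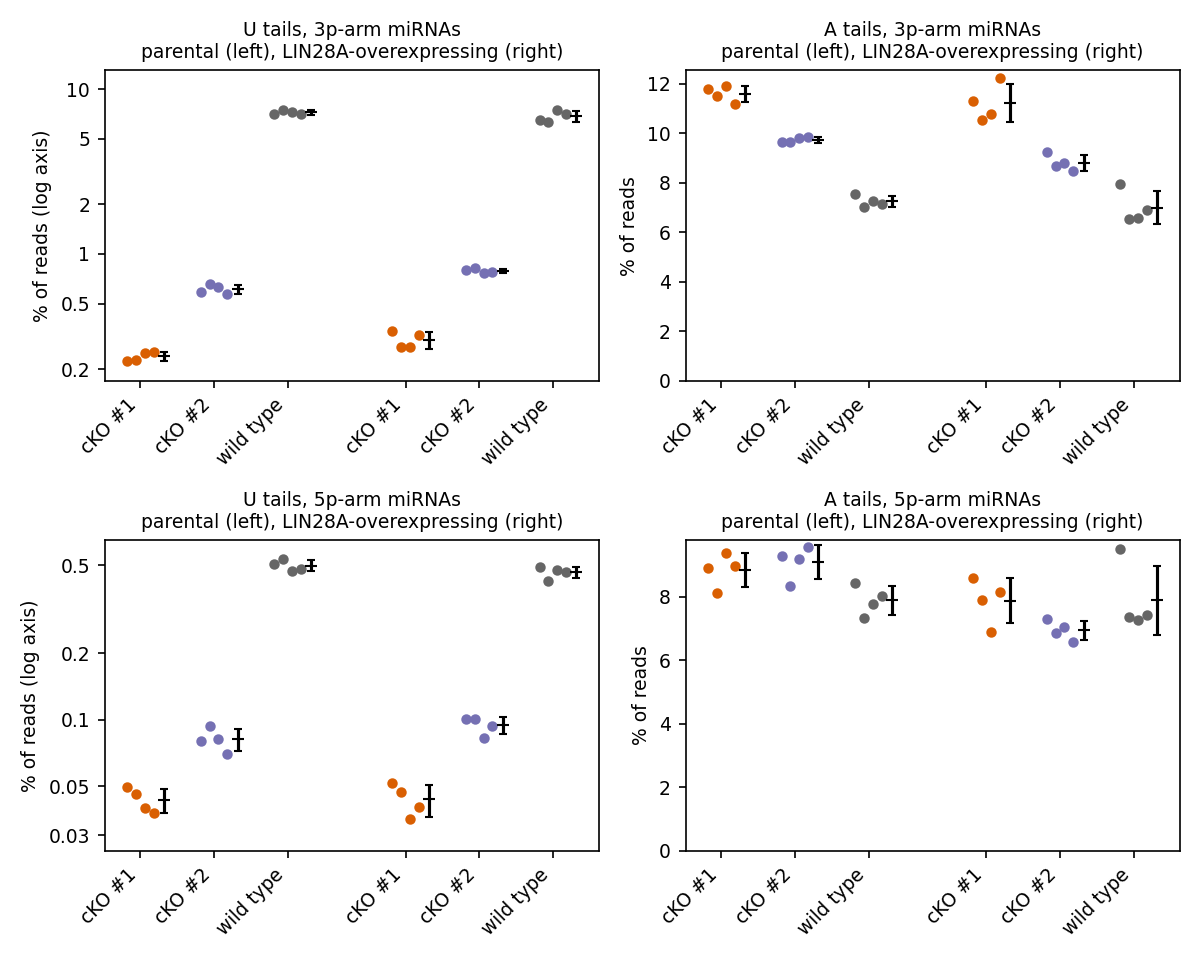
Percent of reads with a U tail (left, log axis) or an A tail (right, linear axis from 0) among 3p-arm miRNAs (top) and 5p-arm miRNAs (bottom), 1 point a library, with the mean and SD of 4 libraries beside the points. In each panel the parental groups are on the left and the LIN28A-overexpressing groups on the right. The 3p-arm U share lies at 0.240% in cKO #1, 0.613% in cKO #2 and 7.22% in wild type, and the order of the clones turns round for the 3p-arm A share, at 11.6 and 9.73%.

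miRNA by miRNA, residual U was higher in cKO #2 across many miRNAs. Of 354 miRNAs with enough reads, 99 (28.0%) had a higher U share in cKO #2 at an adjusted p under 0.01 in edgeR's quasi-likelihood test, and 1 (0.282%), miR-874-3p, a lower one. limma on the log2 odds called 106 higher and 5 lower. The 4 and 4 libraries did not overlap, with cKO #2 the higher, for 107 (30.2%). Against wild type, U shares fell for 307 miRNAs (86.7%) in cKO #1 and 286 (80.8%) in cKO #2, and rose for 1 miRNA in cKO #1 (0.282%) and for 0 in cKO #2, in comparisons that share the wild-type libraries. The calls were spread over both arms, with 46 of 145 miRNAs of the 5p arm and 45 of 156 of the 3p arm higher in cKO #2. Counting called and uncalled miRNAs alike, the mean U share was higher in cKO #2 for 293 of the 354, lower for 47 and equal for 14. Among the 152 miRNAs with a wild-type U share of at least 5%, leaving out miR-874-3p, cKO #1 kept a median of 2.43% of that share and cKO #2 7.58%, and 133 of the 152 kept more in cKO #2. For the 39 miRNAs with at least 20% U in wild type the medians were 0.949 and 3.71%.

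The 8 miRNAs with the largest rise in U share in percentage points, among those called whose clones do not overlap, all had more than 10% U in wild type. miR-652-3p, encoded in TMEM164, carried a U tail on 55.1, 56.1, 55.6 and 56.0% of its reads in wild type. In cKO #1 the share was 0.271, 0.279, 0.314 and 0.218%, and in cKO #2 it was 2.03, 2.01, 2.66 and 1.57%. The lowest cKO #2 library was several times above the highest cKO #1 library (log2 odds ratio 2.95 ± 0.22, adjusted p = 3.82e-39 by edgeR).

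miR-326, encoded in ARRB1, kept 20, 30, 7.14 and 14.8% in cKO #2 against 2.17, 0, 3.64 and 0% in cKO #1 and 70.5, 63.3, 61.9 and 78.8% in wild type. It is a rare miRNA, with 203 reads in all in cKO #1 and 145 in cKO #2, and its cKO #2 libraries range widely, but the clones do not overlap (log2 odds ratio 3.82 ± 0.75, adjusted p = 2.10e-06 by edgeR). For miR-3200-3p, 1 cKO #1 library of 4 held any U-tailed read, and the shares were 0, 1.18, 0 and 0% in cKO #1, 3.18, 3.40, 5.39 and 4.52% in cKO #2 and 20.4, 36.5, 28 and 22.6% in wild type (log2 odds ratio 3.33 ± 0.76, adjusted p = 6.24e-05 by edgeR). miR-760 had 0, 0.685, 0 and 0.667% in cKO #1, 3.65, 2.13, 3.59 and 3.58% in cKO #2 and 59.8, 54.4, 47.9 and 62.3% in wild type. Its call (log2 odds ratio 2.82 ± 0.79, adjusted p = 0.00143 by edgeR) rests in part on cKO #1 replicate 1, without which the adjusted p is 0.0129.

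The next 4 miRNAs gave the same order. miR-330-3p went from 0.158, 1.03, 0.496 and 1.002% in cKO #1 to 3.13, 2.40, 4.47 and 3.85% in cKO #2, with 21.4 to 28.1% in wild type. miR-345-5p went from 0.590, 1.26, 0.847 and 0.993% to 2.75, 2.49, 4.93 and 2.40%, with 21.3 to 26.1% in wild type, and miR-484, whose precursor is formed without Drosha, from 0.573, 0.648, 0.789 and 0.664% to 1.79, 2.40, 2.73 and 2.18%, with 20.4 to 23.8%. miR-151a-3p, encoded in PTK2, went from 0.566, 0.483, 0.497 and 0.489% to 2.08, 2.24, 1.99 and 1.81%, with 12.7 to 15.9%. None of these 4 miRNAs overlaps between clones, and their log2 odds ratios were 2.32, 1.76, 1.77 and 2.02, with adjusted p of at most 5.40e-06 by edgeR.

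**Figure D2:**
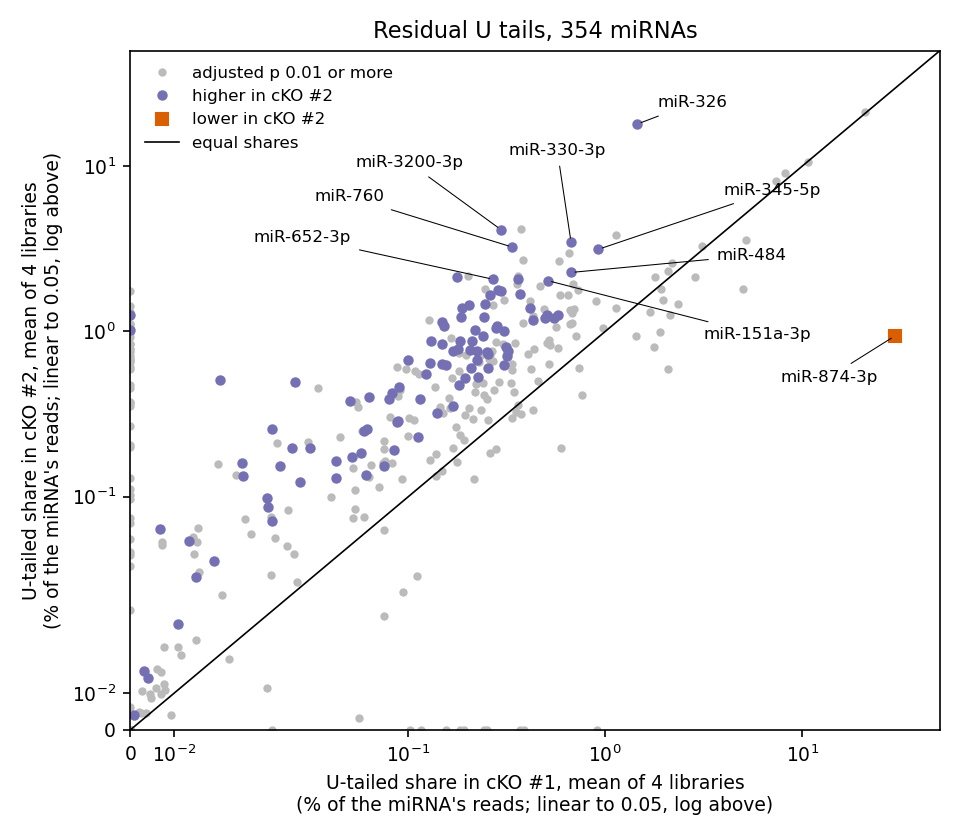
U-tailed share of each of 354 miRNAs in cKO #1 (x axis) and cKO #2 (y axis), in percent of the miRNA's reads and as means of 4 libraries, on axes that are linear up to 0.05 and logarithmic above. The 99 miRNAs higher in cKO #2 lie above the line of equal shares, miR-326 at 17.99% in cKO #2 among them, and miR-874-3p lies far below it at 29.6% in cKO #1 and 0.939% in cKO #2.

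Of the 13 miRNAs that the study named for their tails or levels, 6 had a higher U share in cKO #2 and none a lower one, where 28.0% of all 354 miRNAs tested had a higher one. The study named miR-27a-3p from earlier work in other cells. It also cited earlier work for miR-324, which it then described in its own samples. The others were described on the study's own samples. Apart from miR-27a-3p, the named miRNAs are therefore not independent evidence of a direction. The 6 with a higher U share were miR-652-3p, miR-760, miR-27a-3p, miR-103a-3p, miR-200c-3p and miR-324-3p. miR-27a-3p, from the miR-23a cluster on chromosome 19, had 0.195, 0.197, 0.217 and 0.262% in cKO #1, 0.939, 1.02, 1.07 and 1.07% in cKO #2 and 11.9 to 13.5% in wild type (log2 odds ratio 2.25 ± 0.11, adjusted p = 1.29e-84 by edgeR). miR-103a-3p, encoded in PANK2 and PANK3, had 0.407, 0.411, 0.434 and 0.413% in cKO #1, 1.40, 1.44, 1.46 and 1.24% in cKO #2 and 9.33 to 10.5% in wild type. miR-200c-3p, an epithelial miRNA that represses ZEB1 and ZEB2, had 0.348, 0.245, 0.428 and 0.260% in cKO #1, 0.780, 0.809, 0.755 and 0.698% in cKO #2 and 5.10 to 5.77% in wild type. Each of these 3 separates the clones completely.

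miR-324-3p had no U-tailed read among 1608 in cKO #1, pooled over its 4 libraries. By counting error alone that allows a share of up to 0.187%. In cKO #2 it was 19 of 1323 reads (1.44%), 7.70 times that limit with the error of the 19 reads left out. Wild type was at 40.7, 44.9, 41.2 and 47.3%. One cKO #2 library was also at 0, so the libraries touch. For the let-7 passenger strands no difference passed the threshold. let-7b-3p had 0.658, 0.299, 0.192 and 1.51% in cKO #1, 0.558, 1.99, 0.978 and 1.90% in cKO #2 and 54.2 to 62.7% in wild type (adjusted p = 0.150 by edgeR). miR-98-3p, of the same seed, had 0, 0.676, 0.862 and 0% and 1.55, 0.952, 3.66 and 4.67% against 71.7 to 75.3% (adjusted p = 0.0390 by edgeR), and let-7f-1-3p had means of 0.730 ± 0.843 and 1.77 ± 1.65% against 66.0 ± 1.82%. Between 423 and 2176 reads of each of these 3 stood behind a clone, and a missed threshold does not show that the clones are alike. let-7i-3p, miR-141-3p, miR-324-5p and miR-5001-3p also missed the threshold (adjusted p = 0.0617, 0.854, 0.289 and 0.0188 by edgeR).

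By family, of 9 mature let-7 5p members tested, 4 had a higher U share in cKO #2 (median log2 odds ratio over the 9 of 1.39), of 8 miR-30 members 5 (1.66), of 17 members of the miR-17~92 cluster and its paralogs 7 (1.34), of 7 miR-200 members 3 (1.24) and of 10 members of the miR-23, miR-24 and miR-27 clusters 4 (1.11). Over all 354 the share called was 28.0% and the median 1.27. Of 8 miR-181 members 1 was called and the median was −0.03, and of 5 miRNAs embedded in the HOX clusters none was called (median 0.32). Differences between families were not tested. Grouped by the last base of the mature sequence, the calls covered 28 of 69 miRNAs ending in G (40.6%), 21 of 71 ending in A (29.6%), 27 of 93 ending in U (29.0%) and 16 of 69 ending in C (23.2%), where 52 of the 354 had no sequence in the table. Read depth also differed between these groups, from a median of 456 reads a library for C to 2177.5 for U, and its part was not tested.

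The A share moved the other way: it was lower in cKO #2 than in cKO #1 across many miRNAs. Of 418 miRNAs tested, 78 (18.7%) had a lower A share in cKO #2 and 3 (0.718%) a higher one, by edgeR's quasi-likelihood test at 0.01. limma on the log2 odds called only 15 lower and 0 higher at that threshold, so the count depends on the test. The 4 and 4 libraries did not overlap for 99 (23.7%) with cKO #2 the lower and for 4 (0.957%) with cKO #2 the higher, and the mean was lower in cKO #2 for 329 of the 418 whatever the call. Counted by miRNA the arms were alike, with 38 of 174 miRNAs of the 5p arm and 34 of 170 of the 3p arm lower in cKO #2 and median log2 odds ratios of −0.30 on both. Against wild type, A shares rose for 46.9% of the miRNAs in cKO #1 and for 129 of them (30.9%) in cKO #2, and fell for 3 (0.718%) and 7 (1.67%), again with shared wild-type libraries. Among 276 miRNAs with at least 1% U in wild type, the median gain in A share over wild type was 3.96 percentage points in cKO #1 and 2.01 in cKO #2.

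miR-27a-3p, with at least 390571 reads in each group, shows the pattern with little spread. It was adenylated on 35.4, 36.5, 35.6 and 36.6% of reads in cKO #1, on 23.8, 26.1, 23.6 and 25.3% in cKO #2 and on 13.5, 13.8, 14.3 and 13.2% in wild type, so that the 3 groups are fully apart and cKO #2 lies between the other groups (log2 odds ratio −0.78 ± 0.07, adjusted p = 4.25e-11 by edgeR). let-7b-3p rose from 6.86, 5.13, 4.70 and 6.08% in wild type to 52.2, 54.1, 50.8 and 54.8% in cKO #1 and 42.01, 41.9, 46.0 and 43.6% in cKO #2, and again the clones do not overlap (log2 odds ratio −0.56 ± 0.13, adjusted p = 9.95e-04 by edgeR). miR-652-3p had 49.6, 50.1, 50.5 and 48.8% in cKO #1, 42.5, 45.01, 42.5 and 45.1% in cKO #2 and 16.9 to 18.5% in wild type. let-7f-1-3p had 52.7, 58.9, 62.6 and 50.5% in cKO #1, 37.8, 47.0, 53.7 and 37.5% in cKO #2 and 5.41 to 7.52% in wild type (adjusted p = 0.0168 between the clones by edgeR, and 0.00599 with the replicate as a block, which passes the threshold). let-7i-3p also rose in both clones, with 77.9, 78.4, 79.8 and 77.9% in cKO #1 and 76.5, 73.8, 75.2 and 77.1% in cKO #2 against 2.56 to 5.61% in wild type. The difference of −2.84 percentage points between its clone means was not called (adjusted p = 0.260 by edgeR).

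For miR-324-3p and miR-671-5p the A tails were also split by length. miR-324-3p had an A tail on 74.8, 78.8, 73.0 and 79.1% of reads in cKO #1 and 61.4, 61.8, 61.8 and 62.5% in cKO #2, against 19.6 to 24.7% in wild type (log2 odds ratio −1.01 ± 0.15, adjusted p = 5.75e-06 by edgeR). Single-A tails were at 20.5 ± 1.99 and 21.1 ± 1.60%, and tails of 2 or more A at 55.9 ± 2.07% in cKO #1, 40.8 ± 1.68% in cKO #2 and 14.8 ± 1.10% in wild type. miR-671-5p had A tails on 68.0, 65.4, 65.3 and 69.4% in cKO #1 and 57.4, 58.6, 58.6 and 60.4% in cKO #2. Its single-A tails were at 24.2 ± 0.631% in cKO #1 and 26.2 ± 1.14% in cKO #2, and its tails of 2 or more A at 42.8 ± 2.61 and 32.5 ± 2.22%.

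Of the other miRNAs with the largest differences, miR-3176 had 61.9, 66.7, 63.2 and 64.0% in cKO #1 and 45.9, 46.0, 40.2 and 43.4% in cKO #2 on 200 and 368 reads in all. miR-4485-3p, which lies in a sequence shared with mitochondrial rRNA, had 48.3, 49.0, 50.9 and 51.8% and 28.6, 38.9, 40.5 and 36.8%, with the wild-type libraries at 22.2 to 43.1%, below cKO #1 and across cKO #2. miR-942-5p had 54.1, 52.5, 49.1 and 55.7% and 46.5, 44.7, 42.2 and 40.1%, and miR-425-3p 25.5, 26.9, 29.6 and 24.1% and 20.2, 17.6, 16.4 and 16.4%. None of these 4 overlaps between clones, and their adjusted p by edgeR lay between 6.28e-05 and 0.00645. That of miR-942-5p misses 0.01 without any of cKO #1 replicates 1, 2 and 4 or cKO #2 replicates 3 and 4 (0.0157 to 0.0325).

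The 3 miRNAs with a higher A share in cKO #2 were miR-874-3p, miR-92b-3p and let-7e-5p. miR-92b-3p had 11.4, 11.1, 11.1 and 8.73% in cKO #1, 14.8, 14.5, 14.6 and 13.5% in cKO #2 and 5.09 to 5.46% in wild type. let-7e-5p, a mature let-7, had 1.40, 1.501, 1.36 and 1.24% and 1.72, 1.96, 2.02 and 2.105% against 0.507 to 1.02%, and its call (adjusted p = 0.00902 by edgeR) is lost without any 1 cKO #1 library, cKO #2 replicate 2, 3 or 4, or wild-type replicate 4 (0.0105 to 0.0338). By family, 5 of 9 let-7 5p members, 6 of 18 members of the miR-17~92 cluster and its paralogs and 4 of 11 members of the miR-23, miR-24 and miR-27 clusters had a lower A share in cKO #2, where 18.7% of all miRNAs did. Of 7 miR-200 members and of 9 miR-181 members none was called, except that miR-200c-3p passes with the replicate as a block (log2 odds ratio −0.31, adjusted p = 0.00271 by edgeR), and the families were not tested against each other. Of the let-7 members, let-7b-5p had 35.2, 33.9, 34.3 and 35.2% in cKO #1 and 29.0, 27.2, 28.8 and 31.0% in cKO #2, and let-7i-5p 15.7, 15.4, 16.6 and 14.8% and 10.9, 10.99, 11.5 and 11.3%. Of the study's 13 miRNAs, 5 were lower, with miR-103a-3p, at 0.166 and 0.105%, as the fifth beside those described, and with the replicate as a block let-7f-1-3p and miR-200c-3p pass too.

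**Figure D3:**
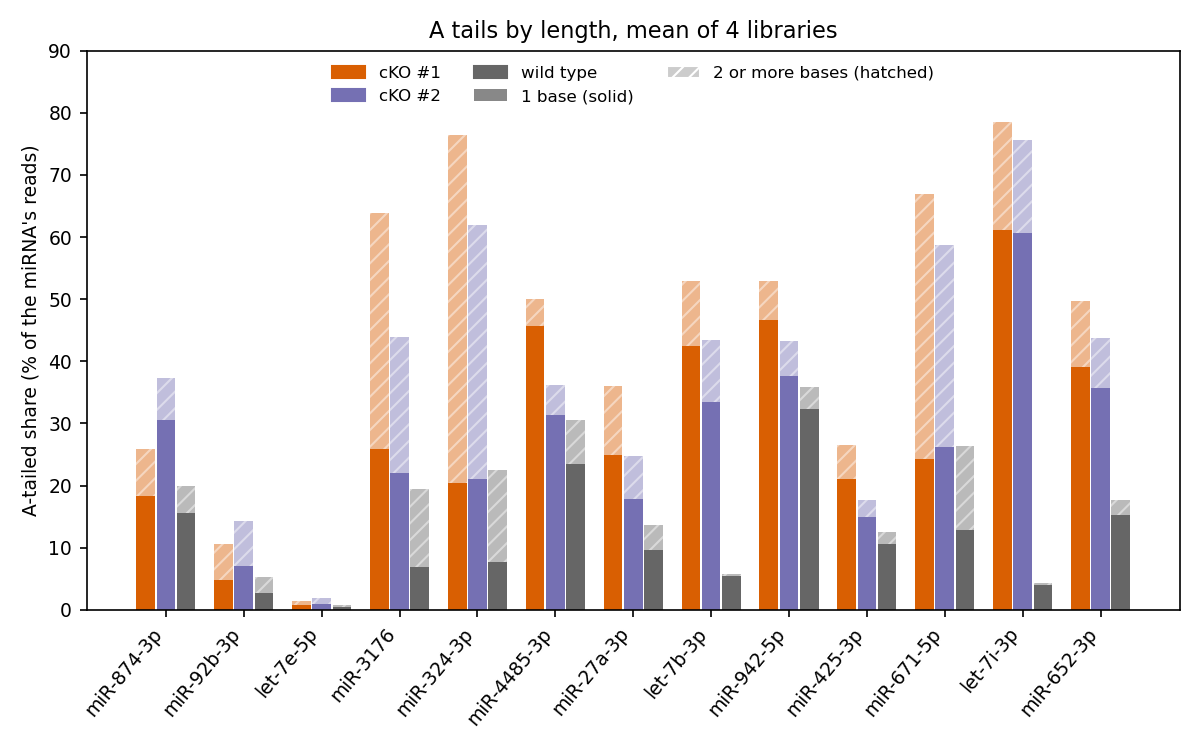
A-tailed share of 13 miRNAs in percent of the miRNA's reads, as bars of the mean of 4 libraries for cKO #1, cKO #2 and wild type, split into tails of 1 base (solid) and of 2 or more bases (hatched). For miR-324-3p the solid parts stand at 20.5 and 21.1% in the clones, and the hatched parts at 55.9 and 40.8%.

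miR-874-3p was the one miRNA with a U share called lower in cKO #2 than in cKO #1. It comes from chr5:137647582-137647603 (minus strand), and is printed here with its seed in capitals, followed by the genomic sequence of the same strand in hg38, chr5:137647574-137647603, with the 8 bases after the mature 3′ end in capitals.
miR-874-3p: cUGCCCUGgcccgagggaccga
miR-874-3p with 3′ flank: ctgccctggcccgagggaccgaCTGGCTGG
Its U share was 29.0, 28.4, 29.2 and 31.7% in cKO #1, 0.467, 1.13, 0.517 and 1.64% in cKO #2 and 5.08, 5.98, 5.09 and 4.40% in wild type, and it was also the one miRNA whose U share was called higher in cKO #1 than in wild type (log2 odds ratio −5.47 ± 0.29, adjusted p = 7.94e-71 between the clones by edgeR). In cKO #1 nearly all of it was a single U at the offset that the files number 1, and what that offset is counted from is not given in the sources used here. Whether these reads carry an added U or a base that differs in that clone was not tested, so its share is a share of reads that the files list with a U. In the 4 cKO #1 libraries, of 445, 560, 435 and 350 reads, 29.0, 28.2, 29.0 and 30.9% carried that tail, and a further 16, 18, 14 and 6 reads carried UA at the same offset. In cKO #2 the single U was on 2, 4, 1 and 4 reads and in wild type on 9, 8, 7 and 7. In the genome, the base that follows the mature end is C. The LIN28A-overexpressing libraries of the same clone again had it, on 27.7, 26.7, 28.7 and 26.4% of reads. In those of cKO #2 it was on 0 of 500, 11 of 800, 1 of 555 and 1 of 627 reads. The A share of miR-874-3p was 26.97, 23.4, 29.2 and 24.3% in cKO #1 and 37.1, 37.0, 34.9 and 40.5% in cKO #2, and its wild-type libraries lay at 28.5, 17.1, 16.4 and 17.9%.

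**Figure D4:**
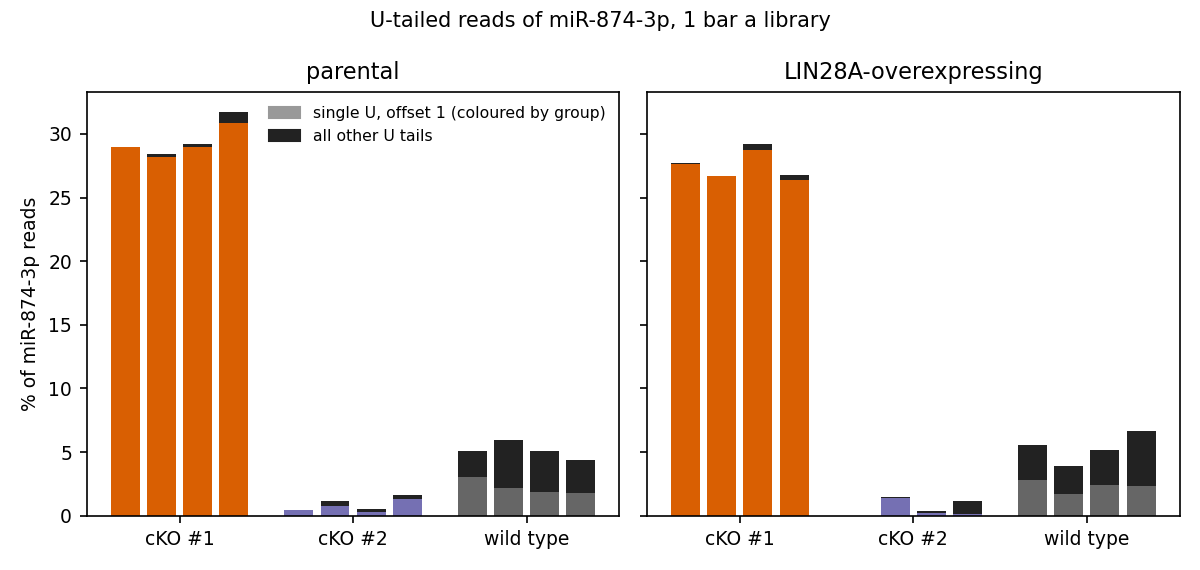
U-tailed reads of miR-874-3p in percent of its reads, 1 bar a library, for parental (left) and LIN28A-overexpressing (right) cells, split into a single U at offset 1 (coloured by group) and all other U tails (black). The 8 bars of cKO #1 stand between 26.7 and 31.7%, those of cKO #2 at or below 1.64% and those of wild type at or below 6.62%.

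Abundance differed between the clones for a large part of the miRNAs. A level here is in CPM scaled by edgeR's TMM factors. Of 754 miRNAs tested, 117 (15.5%) were higher in cKO #2 and 146 (19.4%) lower, 34.9% in all, by edgeR's quasi-likelihood test at 0.01. The 4 and 4 libraries did not overlap for 322 (42.7%). The split depends on the scaling. With libraries scaled by their total reads, a choice added after seeing the data, 334 were higher and 53 lower, and with TMM factors taken from miRNAs of at least 50 CPM alone, 179 were higher and 103 lower. The median log2 fold change over all 754 miRNAs was 0.05 by TMM, 0.24 with the factors from abundant miRNAs and 0.60 by total reads, and the mean TMM factors were 0.839 in cKO #1 and 1.23 in cKO #2. A change is therefore read here against the median miRNA. Against wild type, 19.8% of the miRNAs were higher and 21.1% lower in cKO #1, and 114 higher (15.1%) and 135 lower (17.9%) in cKO #2, in comparisons that share the wild-type libraries.

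Among the miRNAs higher in cKO #2, several stood near wild type in that clone and below it in cKO #1. miR-147b was at 76.9, 77.1, 67.6 and 61.6 CPM in cKO #1, 246, 251, 254 and 226 in cKO #2 and 214, 254, 269 and 266 in wild type (log2 fold change 1.79 ± 0.10, adjusted p = 4.77e-11 by edgeR). miR-135b-5p, and with it miR-135a-5p whose reads it largely shares, was at 179.5, 171, 198 and 148 CPM in cKO #1, 665, 437, 576 and 527 in cKO #2 and 488 to 618 in wild type. miR-200b-5p was at 30.4, 31.1, 34.7 and 29.2 CPM in cKO #1, 81.8, 92.8, 90.1 and 93.7 in cKO #2 and 104 to 109 in wild type. In each, the clones are fully apart and cKO #1 is the lowest group. miR-7-5p also follows this order, at 1281, 1040.4, 1341 and 1809.6 CPM in cKO #1, 4391, 2072, 3113 and 4766 in cKO #2 and 2661 to 4878 in wild type, but with a wide spread (log2 fold change 1.39 ± 0.29, adjusted p = 0.00228 by edgeR), and the adjusted p is 0.0108 without cKO #1 replicate 2.

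For others wild type lay between the clones. miR-486-5p was at 15.9, 19.7, 15.7 and 11.6 CPM in cKO #1, 99.3, 120.2, 82.8 and 81.2 in cKO #2 and 51.8 to 74.9 in wild type (log2 fold change 2.61 ± 0.17, adjusted p = 1.53e-10 by edgeR). miR-10a-5p, which lies among the HOXB genes, was at 4194, 4361, 3469.9 and 3429.7 CPM in cKO #1, 10851, 11402, 10224 and 10797 in cKO #2 and 5287, 6153, 6375 and 6236 in wild type. miR-10a-3p from the same hairpin was at 101, 117, 106 and 106 CPM in cKO #1, 353, 329, 308 and 302 in cKO #2 and 139.5 to 179.9 in wild type. The log2 fold changes were 1.49 and 1.59. The transcript of HOXB3, which spans the miR-10a hairpin, moved in the same direction, at 6.46, 5.20, 5.597 and 4.45 CPM in cKO #1, 23.7, 18.1, 18.8 and 21.9 in cKO #2 and 7.37 to 10.4 in wild type (log2 fold change 1.80 ± 0.15, adjusted p = 2.12e-07 by edgeR).

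Among called miRNAs of at least 50 CPM whose clones do not overlap, the largest fall in cKO #2 was that of miR-10b-5p, the HOXD counterpart of miR-10a-5p. It was at 484, 501, 422 and 360.0 CPM in cKO #1, 51.4, 39.8, 21.5 and 20.1 in cKO #2 and 64.8, 75.2, 75.4 and 68.6 in wild type, so that cKO #1 stood far above both other groups, and the 2 miR-10 paralogs moved in opposite directions (log2 fold change −3.72 ± 0.27, adjusted p = 1.77e-07 by edgeR). miR-193b-3p was at 546, 561, 541 and 405 CPM in cKO #1, 127, 166, 148 and 123 in cKO #2 and 212 to 263 in wild type. miR-4485-3p was at 166, 186, 111 and 128 CPM in cKO #1, 30.5, 43.0, 25.5 and 29.0 in cKO #2 and 6.77 to 21.9 in wild type. Wild type lay between the clones for miR-193b-3p and below both for miR-4485-3p. miR-455-3p, encoded in a collagen gene, differs in that cKO #1 was level with wild type, at 78.3, 81.8, 81.9 and 79.9 CPM in cKO #1, 20.04, 20.5, 18.9 and 19.99 in cKO #2 and 78.4, 78.8, 74.6 and 61.3 in wild type (log2 fold change −2.02 ± 0.11, adjusted p = 1.98e-11 by edgeR). miR-4284 was at 106, 117, 94.95 and 77.7 CPM in cKO #1, 19.95, 35.4, 26.7 and 30.7 in cKO #2 and 35.8, 44.997, 28.6 and 106 in wild type. Its wild-type libraries spread over both clones, its adjusted p (0.00247 by edgeR) rises to 0.0164 when libraries are scaled by total reads, and without cKO #2 replicate 1 or 3 it is 0.0111 and 0.01002.

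miRNAs of the miR-23b and miR-27b cluster were lower in cKO #2. miR-23b-3p was at 12570.3, 15123, 13486 and 12151 CPM in cKO #1, 3849, 4345, 3891 and 3270.2 in cKO #2 and 4819.5 to 5761 in wild type. miR-27b-3p was at 39117, 44722, 38211 and 38811 CPM in cKO #1, 12285, 11530.1, 12454 and 10395 in cKO #2 and 9201 to 14371 in wild type. With the passenger strand miR-27b-5p, the log2 fold changes were −1.80, −1.79 and −1.70, each ± at most 0.11 (SE). The host transcript C9orf3 was at 68.6, 73.6, 76.7 and 77.7 CPM in cKO #1, 37.7, 40.1, 36.8 and 49.2 in cKO #2 and 30.8, 32.1, 30.1 and 26.97 in wild type (log2 fold change −0.97 ± 0.12, adjusted p = 1.04e-05 by edgeR). Of 11 members of the miR-23, miR-24 and miR-27 clusters on chromosomes 9 and 19, 10 were lower in cKO #2 and none higher (median log2 fold change −1.09), miR-27a-3p among them at 25245, 25801, 25095 and 24179 and 14476, 11592, 13679 and 12764 CPM. With total-read scaling 9 of the 11 were still lower (median −0.54). Of all 754 miRNAs, 19.4% were lower by TMM, and 53 miRNAs with total-read scaling.

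**Figure D5:**
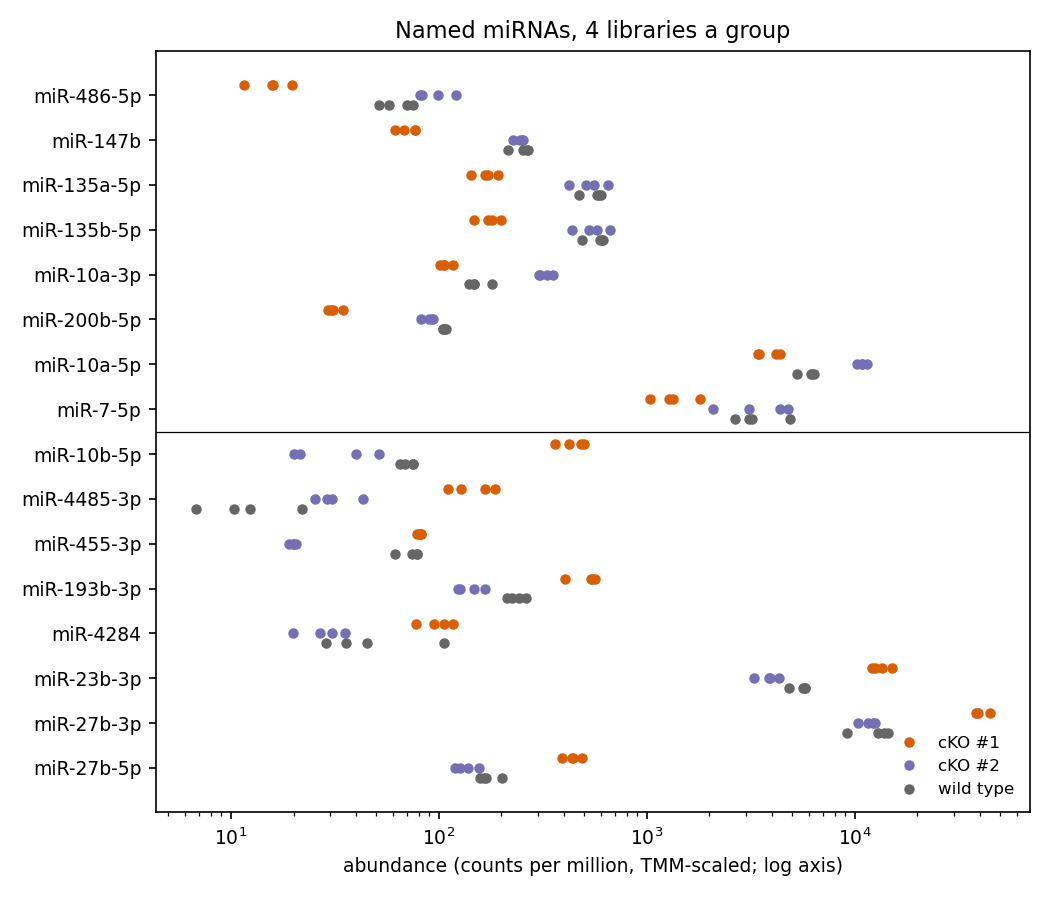
Abundance of 16 miRNAs in CPM (TMM-scaled, log axis), 1 point a library, for cKO #1, cKO #2 and wild type. Above the line are the 8 miRNAs with the largest rise in cKO #2 and below it the 8 with the largest fall, among miRNAs of at least 50 CPM whose clones do not overlap.

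Families moved together in several cases. The background by TMM was 15.5% of all 754 miRNAs higher in cKO #2 and 19.4% lower. With total-read scaling it was 334 miRNAs higher and 53 lower. All 9 members of the miR-200 family, which hold cells in an epithelial state by repressing ZEB1 and ZEB2, were higher in cKO #2 (median log2 fold change 1.19), under TMM and under total-read scaling alike. miR-200c-3p was at 1777, 1865, 1701 and 1436 CPM in cKO #1, 3754, 4602, 3648 and 3136 in cKO #2 and 3891 to 4055 in wild type. miR-141-3p from the same transcript was at 63.7, 68.3, 66.8 and 57.6 CPM in cKO #1, 166, 122, 161 and 110.4 in cKO #2 and 96.2 to 139.7 in wild type. miR-200b-3p and miR-429, from the other cluster of the family, stayed below wild type in both clones, with miR-429 at 456, 411, 429 and 433 CPM in cKO #1, 1146, 848, 1003 and 1009.9 in cKO #2 and 1598 to 1811 in wild type. Of the 4 epithelial transcripts given above, EPCAM and KRT18 were higher in the same clone, and KRT8 and CDH1 were not called. CDH1 was at 45.7, 33.7, 49.5 and 37.4 CPM in cKO #1 and 68.5, 72.7, 83.0 and 41.7 in cKO #2. Its adjusted p by edgeR was 0.0140, and 0.00909 with the replicate as a block. Whether the miR-200 levels have a part in these transcripts was not tested.

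Of 11 miR-30 members, 8 were lower in cKO #2 and none higher by TMM (median −1.01), and 6 lower and 2 higher with total-read scaling. By TMM 19.4% of all 754 miRNAs were lower, and with total-read scaling 53 were lower and 334 higher. miR-30a-5p was at 13778, 14534, 12296 and 12450.3 CPM in cKO #1, 5480.2, 4517, 4710.5 and 4721 in cKO #2 and 3574 to 5342 in wild type. LINC00472, the host of miR-30a and miR-30c-2, was at 7.11, 4.39, 9.51 and 3.47 CPM in cKO #1, 0.320, 0.625, 0.716 and 0.290 in cKO #2 and 0.942 to 2.57 in wild type (log2 fold change −3.72 ± 0.42, adjusted p = 4.74e-06 by edgeR). Of 9 members of the miR-99, miR-100 and miR-125 family, 7 were lower in cKO #2 (median −0.94), and 4 lower and 1 higher with total-read scaling. miR-100-5p was at 15664, 16102, 12480.1 and 11908 CPM in cKO #1 and 5500.3, 4881, 4330.1 and 5002 in cKO #2, and miR-125b-5p at 5743, 5927, 4975 and 4862 in cKO #1 and 2333, 2132, 1777 and 1988 in cKO #2. MIR100HG, their host on chromosome 11, was at low levels of 2.40, 2.96, 3.64 and 2.08 CPM in cKO #1 and 1.92, 1.501, 1.19 and 1.35 in cKO #2 (adjusted p = 0.0273 by edgeR). Of 8 members of the p53-linked miR-34 and miR-449 family, 6 were lower by TMM (median −0.80) and 1 with total-read scaling.

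The direction of the let-7 family rests on the scaling. Of 9 mature 5p members, 8 were lower in cKO #2 by TMM and 1, let-7i-5p, was higher (median −0.69), whereas with total-read scaling 2 were higher and none lower (median −0.13). Over all 754 miRNAs, 15.5% were higher and 19.4% lower by TMM, and 334 higher and 53 lower with total reads. Relative to the median miRNA the family lay at −0.74 by TMM and −0.73 with total reads. let-7f-5p was at 15082, 16945, 16215 and 17126 TMM-scaled CPM in cKO #1, 9339, 10839, 9820.3 and 10388 in cKO #2 and 21513 to 24065 in wild type. miR-98-5p was at 1005, 1049.7, 1012 and 1245 in cKO #1, 592, 607, 568 and 607 in cKO #2 and 2223 to 2485 in wild type, so that wild type was the highest group. Of 10 let-7 passenger strands, 4 were lower and 1 higher by TMM, and 1 and 1 with total reads (median −0.39 by TMM and 0.16 by total reads).

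Of 7 miRNAs of 14q32 tested, most of which lie in an imprinted cluster, 6 were lower in cKO #2 by TMM and 5 with total reads. Over all 754 miRNAs, 19.4% were lower by TMM, and 53 miRNAs with total reads. Most were rare, and miR-487b-3p was at 3.09, 3.05, 4.90 and 2.65 CPM in cKO #1, 0.0864, 0.651, 0.486 and 0.382 in cKO #2 and 0.752 to 1.03 in wild type. Of 21 members of the miR-17~92 cluster and its paralogs, 3 were higher and 5 lower (median 0.08). The exception among them was miR-363-3p, from the X-linked paralog, at 16.5, 16.5, 16.7 and 17.7 CPM in cKO #1, 0.691, 0.434, 0.728 and 0.637 in cKO #2 and 49.2, 53.9, 48.5 and 51.5 in wild type, the largest fall of the family (log2 fold change −4.72 ± 0.18, adjusted p = 8.71e-14 by edgeR), and miR-20b-5p from the same cluster was at 4.57, 4.69, 7.14 and 5.06 CPM in cKO #1, 1.296, 1.63, 0.364 and 0.637 in cKO #2 and 15.3 to 16.4 in wild type. For the groups of miR-221 and miR-222, miR-15 and miR-16, miR-29, miR-181, and miR-424 and miR-503, in that order, 1 of 4, 4 of 14, 5 of 7, 3 of 10 and 2 of 10 members were called, and their median log2 fold changes lay between −0.05 and 0.0997. The share called in either direction over all 754 miRNAs was 34.9%. In the HOX-embedded group, 3 of 8 were higher and 2 lower. The miR-224 and miR-452 pair and the Xq27 cluster had no member above the filter on low counts, and the chromosome 19 embryonic and placental clusters had 1, which was not called.

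Of the study's 13 miRNAs, 4 were higher in cKO #2 by TMM (miR-141-3p, miR-200c-3p, miR-760 and let-7i-3p) and 4 lower (miR-27a-3p, miR-324-3p, let-7b-3p and let-7f-1-3p). Over all 754 miRNAs, 15.5% were higher and 19.4% lower by TMM. With total-read scaling, miR-324-3p, let-7b-3p and let-7f-1-3p had log2 fold changes of 0.044, 0.076 and 0.015, so their directions rest on the scaling. By TMM, let-7b-3p also misses the threshold without cKO #1 replicate 2 or 3 or cKO #2 replicate 1 or 4 (adjusted p 0.0117 to 0.0169), and let-7f-1-3p without any 1 library other than cKO #1 replicate 2 or wild-type replicate 3 (0.0108 to 0.0521). miR-760, whose residual U was higher in cKO #2, was also the more abundant there, at 18.8, 17.1, 15.7 and 18.1 CPM in cKO #1, 33.2, 40.7, 30.5 and 35.5 in cKO #2 and 8.52 to 15.6 in wild type. miR-652-3p, at 695, 799, 624 and 608 CPM in cKO #1, 576, 598, 562 and 536 in cKO #2 and 292 to 339 in wild type, lay above wild type in both clones and was not called between them (adjusted p = 0.0235 by edgeR). Among the host transcripts of the miRNAs with residual U, ARRB1 (miR-326), PTK2 (miR-151a) and TMEM164 (miR-652) were lower in cKO #2 (log2 −1.20, −0.83 and −0.45), and PANK2 (miR-103a) was higher (0.68). PANK3 (miR-103a) was not called (adjusted p = 0.0149 by edgeR, and 0.00822 with the replicate as a block). BCAR3 and ACADVL, at the loci of miR-760 and miR-324, were not called either (adjusted p = 0.404 and 0.0303 by edgeR). Whether BCAR3 and ACADVL are transcribed from the strand of these miRNAs was not checked.

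The 8 LIN28A-overexpressing libraries of the same clones give the clone difference again in libraries that the parental comparison did not use, at other passages and with LIN28A present. Their U share was 0.147, 0.1003, 0.0876 and 0.108% in cKO #1, 0.272, 0.271, 0.253 and 0.274% in cKO #2 and 2.02, 1.71, 2.02 and 1.91% in the untargeted line. The clones do not overlap (exact permutation p = 0.0286). One library, cKO #1 replicate 1, stood apart, with miR-21-5p at 37.6% of its reads and the highest U share of its group. Values without it, a choice made after seeing the data, stand in parentheses. Of the 99 miRNAs with a higher U share in parental cKO #2, 98 had the same sign here and 89 were called (86 without that library), where 36.3% of all miRNAs tested were called in that direction and 0.538% in the other, miR-874-3p among them. Of the 78 with a lower A share, 78 had the same sign and 45 were called (77 and 33 without that library), with 13.9% as the background, and of the 3 with a higher one 2 were called (1 without that library), with 0.463%. For abundance, 72 of 115 higher and 71 of 141 lower miRNAs were called again in the same direction (73 of 116 and 78 of 142 without that library), with 11.7 and 10.3% as the background, and 0 miRNAs of any of these sets were called in the opposite direction by edgeR at 0.01.

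miR-652-3p had a U share of 0.304, 0.179, 0.217 and 0.287% in cKO #1 and 2.05, 2.27, 2.46 and 1.80% in cKO #2 with LIN28A, and miR-27a-3p 0.308, 0.336, 0.316 and 0.331 and 1.33, 1.49, 1.39 and 1.41%. The A share of miR-27a-3p was 44.8, 40.4, 41.6 and 43.9% and 29.6, 29.6, 28.4 and 28.9% in the same order. Each of these again leaves the clones apart. Of the miRNAs named above as the largest differences, those in U share were all called again. In abundance miR-7-5p was not (log2 fold change 0.27, adjusted p = 0.738 by edgeR). In A share miR-3176 (74.6, 52.4, 65.4 and 62.0 against 43.2, 58.4, 55.4 and 50%), let-7b-3p (54.4, 54.9, 49.4 and 56.2 against 40.8, 44.5, 50.4 and 46.2%) and let-7e-5p were not (adjusted p = 0.170, 0.0682 and 0.0193 by edgeR).

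Whether a clone difference itself differed between the LIN28A-overexpressing and the parental libraries was tested as an interaction over all 24 libraries. These lines also differ in lentiviral transduction, puromycin selection and passage number, from which LIN28A cannot be told apart here. The replicates are again passages, so the spread behind this test is that between passages. For the U share 0 of 394 miRNAs and for the A share 0 of 435 passed 0.01 in edgeR (23 and 29 at an unadjusted p under 0.05). For abundance 13 of 842 (1.54%) passed. Members of the miR-100 and miR-125b group lay further apart with LIN28A. miR-125b-5p was at 4877, 4279, 4022 and 3601 CPM in cKO #1 and 525, 403, 494 and 391 in cKO #2 with LIN28A (log2 −3.21 against −1.39 in the parental clones), and miR-100-5p at 12121, 10409, 9296 and 8319 and 1517, 1216, 1305 and 1012 (log2 −2.99 against −1.51). The cluster of miR-200b, miR-200a and miR-429 did so in the other direction, with miR-200b-3p at 770.1, 751, 760.1 and 741 and 3491, 3469.5, 3635 and 3501 CPM (log2 2.22 against 1.19). For miR-363-3p the clones lay closer together (log2 −2.36 against −4.72). Without the library that stood apart, 11 of the 13 still passed.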

How the data were processed

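Small RNA libraries were made from total RNA (TRIsure extraction) with the NEXTFlex Small RNA-seq Kit v3, and mRNA libraries from poly(A) RNA with the NEBNext Ultra II Directional kit. The authors trimmed adapters with cutadapt and 4 random bases from each read end, and assigned reads and tails with Chimira. The deposited modification files hold whole-number counts of reads per miRNA, tail pattern and position. A second deposited table of miRDeep2 counts (hg38) served as an alternative, for which 24 count columns of other samples were not used. Deposited mRNA counts came from HISAT2 2.1.0 and HTSeq on hg38 after Trimmomatic 0.39, per the labels and the methods. Reads without a gene, 21.9 to 25.5% of a library, were left out. Whether reads with the same random bases were merged is not given in the sources used here. The limit for a share of 0 therefore treats every read as independent and covers counting error only.

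Counts were summed per miRNA, and 3′ tails of U only or A only per miRNA. The few reads that the files mark as doubled (at most 0.0960% of a library) were kept. Abundance and mRNA were tested with edgeR 4.0.16 (TMM, filterByExpr, quasi-likelihood F test) in R 4.3.3, and tail shares with the same test on tailed and other reads of each library, for miRNAs with a mean of at least 50 reads and at least 10 tailed reads in all. One fit covered the 12 parental libraries, with Benjamini-Hochberg adjustment over all features and a threshold of 0.01. Library shares were compared by an exact permutation test. Alternatives were DESeq2 1.42.0, limma 3.58.1, other scalings, filters and tail lengths, a replicate block and leaving out each library. The steps were tested on simulated data with known changes of 1 and 2 in log2. The tests recovered 79.4 and 100% of them for abundance and 68 and 86% for the A share. For the U share, set at the level of cKO #1, they recovered only 10 and 38%. An uncalled U share therefore does not show that the clones are alike. In the simulated data at most 1.28% of the calls were false. Their spread between libraries was a fixed setting, independent for each library, and was not estimated from the real libraries. The share of false calls in the real data is therefore not known from it. Same-numbered parental libraries deviated together from their group means (correlations 0.128 to 0.529, each library closest to its own number). Some margins were narrow: cKO #2 replicate 3 had 0.128 with cKO #1 replicate 3 and 0.126 with cKO #1 replicate 4. The replicate block in the fits therefore rests on a pairing read from these data, not on a stated shared batch. The exact permutation tests of library shares did not pair the libraries. No pair of replicates agreed within sampling noise (chi-square per degree of freedom of at least 17.6 in the parental groups).

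The miRNAs and lists were chosen with earlier results of these data known. Named for each measure were up to 8 miRNAs in each direction with the largest change among those past 0.01 whose 4 and 4 libraries do not overlap (for abundance, of at least 50 CPM on average), every miRNA the study named, up to 4 examples of each family list, the listed pathway genes, and hosts of named miRNAs. miRNAs without an entry in the sequence table are named only. One listed gene is not reported here.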

Additional observations from a re-analysis of the deposited data

Results flagged for a closer look

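Of 150 groups of 4 libraries examined, 14 held a library far from the other 3 by Dixon's criterion, where chance gives about 1 in 20. In the parental shares it was the C share of 1 cKO #1 library, 0.481%. With LIN28A, it was a U share of 0.253% in cKO #2, and in the untargeted line an A share of 9.07% and a mixed-tail share of 1.17%. In abundance it was miR-193b-3p at 405 CPM and miR-27b-3p at 44722 CPM in cKO #1, and miR-23b-3p at 4819.5 CPM in wild type. In U shares it was miR-3200-3p at 1.18% and miR-151a-3p at 0.566% in cKO #1, and miR-760 at 2.13% and miR-345-5p at 4.93% in cKO #2. In A shares it was miR-874-3p at 28.5% in wild type and miR-92b-3p at 8.73% in cKO #1. The TUT7 transcript was at 14.9 CPM in 1 cKO #2 library.

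The clone difference in abundance differed between the LIN28A-overexpressing and the parental libraries for 13 miRNAs, by the interaction test in edgeR. LIN28A cannot be told apart here from transduction, selection and passage number. Relative to the parental clones, the log2 fold change of cKO #2 over cKO #1 was lower by 2.72 for let-7a-2-3p (−2.72), and it shifted by −1.58 for miR-100-5p, −1.99 for miR-125b-1-3p, −1.92 for miR-125b-5p, −2.57 for miR-143-3p, −1.07 for miR-450a-2-3p and −1.76 for miR-503-3p. It shifted by 1.07 for miR-147b, 1.10 for miR-200a-3p, 0.98 for miR-200a-5p, 0.94 for miR-200b-3p, 1.02 for miR-429 and 2.28 for miR-363-3p. miR-200a-5p and miR-450a-2-3p miss the threshold without LIN28A-overexpressing cKO #1 replicate 1 (adjusted p = 0.0117 and 0.0177 by edgeR).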

How the results depend on the processing

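The number of miRNAs higher and lower in cKO #2 went from 117 and 146 to 55 and 72 with a filter of at least 50 CPM, which tests fewer miRNAs. With total-read scaling it was 334 and 53, and with TMM on abundant miRNAs 179 higher. Both scalings were chosen after seeing the data. The negative log2 fold changes of let-7b-3p, let-7f-1-3p, miR-103a-3p, miR-324-3p, miR-324-5p, miR-5001-3p, miR-652-3p and miR-98-3p turned round with total reads, to 0.076, 0.015, 0.33, 0.044, 0.12, 0.25, 0.30 and 0.11, and that of miR-324-3p to 0.031 in the miRDeep2 counts (the cause was not tested). Of these 8, let-7b-3p, let-7f-1-3p and miR-324-3p were called lower by TMM, and miR-103a-3p was called higher with total reads (adjusted p = 0.00213 by edgeR). limma called 5 miRNAs with a lower U share, and 0 with a higher and 15 with a lower A share. With single-base tails only, 48 had a lower A share, and miR-324-3p (0.041) and miR-671-5p (0.16) turned round. At a threshold of 0.05, 5 had a higher A share. The uncalled U difference of miR-141-3p turned to −0.25 with limma. Without single libraries it ranged from −0.45 to 1.01, its A difference from −0.23 to 0.0069, and the uncalled differences of the transcripts PARN, PAX8 and PECAM1 from −0.051 to 0.0047, −0.22 to 0.11 and −0.16 to 0.59.

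In percentage points of a library, with equal weight per miRNA the U, A and C differences were 0.269, −1.89 and −0.121, and without miR-21-5p the U, A, C and G differences were 0.241, −1.25, −0.0115 and −0.0213. U and A then passed 0.05 in both cases, as did G without miR-21-5p. The C difference turned round in both, and passed 0.05 with equal weight (adjusted p = 0.0476, exact permutation test).

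With the replicate block, 117 miRNAs were higher and 153 lower in abundance, 99 and 1 in U share and 3 and 85 in A share. It moved let-7f-1-3p (−0.71, adjusted p = 0.00599 by edgeR) and miR-200c-3p (−0.31, adjusted p = 0.00271 by edgeR) past the threshold for the A share, and the transcripts CDH1 (0.54, 0.00909) and PANK3 (−0.65, 0.00822) past it for mRNA, and it changed no other named call in the parental clones. Same-numbered LIN28A-overexpressing libraries deviated together only in part (correlations −0.0381 to 0.471, 2 of 4 closest to their own number). Whether the numbers pair them was not settled. A fit with that block gave 1 lower U share, and 4 higher and 102 lower A shares. Leaving out single libraries of that line gave 1 to 2 lower U shares, 0 to 2 higher A shares and 27 to 92 lower A shares, with 27 without cKO #1 replicate 4, 36 and 31 without cKO #2 replicates 3 and 4 and 92 without wild-type replicate 1. Few reads limit the tail shares of rare miRNAs such as miR-326.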

Other observations

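Some miRNAs carried U tails in both clones at levels not called different from wild type. A missed threshold does not show that a level equals that of wild type. miR-607 carried a U tail on 20.3, 20.8, 17.7 and 24.6% of its reads in cKO #1, 19.7, 22.2, 20.3 and 22.7% in cKO #2 and 26.9, 27.97, 27.3 and 30.7% in wild type. Its clones overlap with each other, and every mutant library lay below every wild-type library. miR-3159 had 5.73, 6.47, 9.53 and 7.79% in cKO #1, 9.78, 7.57, 7.90 and 7.46% in cKO #2 and 5.11, 7.83, 6.83 and 6.77% in wild type, where all 3 groups overlap, and miR-5095 6.93, 7.22, 6.19 and 12.5% in cKO #1, 7.01, 10.8, 7.29 and 11.3% in cKO #2 and 7.95, 4.84, 9.76 and 2.47% in wild type. miR-548ay-5p, with 344 to 416 reads in a clone, had 9.09, 9.68, 8.33 and 15.7% in cKO #1, 11.7, 11.5, 10 and 9.30% in cKO #2 and 30.6, 15.96, 17.8 and 11.6% in wild type. None of the 4 was called between the clones or against wild type at 0.01 in edgeR. They were chosen after their values were seen.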
